A study of Rattus norvegicus with 6 samples.

Results

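The 10 genes described here encode Toll-like receptors of the vessel wall and the proteins that stand next to them: the receptors Tlr2, Tlr3 and Tlr4, the co-receptors Cd14 and Ly96, the adaptors Myd88, Tirap and Ticam1, the kinase Irak1 and the ubiquitin ligase Traf6. They were taken by their symbols, and all 10 were present among the 22574 gene symbols of the count table. RNA came from rat aortic vascular smooth muscle cells (RASMCs), primary cells of the aortic media of male Sprague-Dawley rats aged 8 weeks. The 3 libraries labelled CitH3+dsDNA, called H3CIT+dsDNA or challenged here, came from cells that received 0.03 μM citrullinated histone H3 (H3CIT) and 300 ng/ml double-stranded DNA (dsDNA), 2 components of extracellular traps (ETs). The 3 control libraries, Ctr1 to Ctr3, came from RASMCs given bovine serum albumin instead. The length of the exposure is not given in the sources used here. By the study's reporting summary, replicates of in vitro work were separate wells with cells of 1 rat, so that p-values measure the spread between wells and library preparations and not between animals.

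Toll-like receptors sense microbial and endogenous molecules, among them histones and nucleic acids released from dying cells. Tlr4 recognises its ligands together with the secreted protein MD-2, the product of Ly96, and with Cd14, which delivers lipopolysaccharide to the complex. At the cell surface Tlr2 and Tlr4 recruit Tirap and Myd88, which assemble Irak kinases and activate Traf6 and, through it, NF-κB and MAP kinases. Tlr3, an endosomal receptor of double-stranded RNA, signals through Ticam1 (TRIF) to Tbk1 and the interferon regulatory factors, and Tlr4 uses this second route from endosomes with the help of Ticam2 (TRAM). The question of the comparison was whether RASMCs exposed to components of ETs express these sensors and adaptors differently from control cells.

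Only the transcripts of Tlr4 and Myd88 passed the test, both higher after H3CIT+dsDNA, while the other 7 members tested did not pass and Ly96 lay too low to be tested. Of the 9 members tested, edgeR's quasi-likelihood test called 2 at an adjusted p-value under 0.05, against 2.20% of the 12591 genes tested (1.94% higher and 0.262% lower). At an unadjusted p-value under 0.05 the number of members was also 2, and DESeq2 and limma-voom each called 2. The median log2 fold change of the 9 members was 0.27, against -0.0013 over all genes tested, and without control replicate 3 it was 0.10. The libraries held between 17573905 and 18742395 counts. Levels are given as CPM, counts per 1000000 of a library's total after scaling by the trimmed mean of M-values (TMM).

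The bases upstream of the start sites of the 2 genes that rose are shown, because both were searched for the binding letters of the factors that Toll-like receptor and interferon signals act through. The windows are those of RefSeq for the later rat assembly GRCr8, each 250 bases that end just before the start site, written 5′ to 3′ on the gene's strand. They lie at chr8:127956231-127956480 on the minus strand for Myd88 and at chr5:85160997-85161246 on the plus strand for Tlr4. Capitals mark the overlapping letters of a STAT site and an interferon-stimulated response element, and Tlr4 has none.
Myd88: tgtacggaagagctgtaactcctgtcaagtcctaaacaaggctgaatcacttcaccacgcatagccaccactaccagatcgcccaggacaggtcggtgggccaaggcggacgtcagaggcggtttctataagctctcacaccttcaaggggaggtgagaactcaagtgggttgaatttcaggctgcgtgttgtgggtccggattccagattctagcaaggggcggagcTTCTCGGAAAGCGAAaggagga
Tlr4: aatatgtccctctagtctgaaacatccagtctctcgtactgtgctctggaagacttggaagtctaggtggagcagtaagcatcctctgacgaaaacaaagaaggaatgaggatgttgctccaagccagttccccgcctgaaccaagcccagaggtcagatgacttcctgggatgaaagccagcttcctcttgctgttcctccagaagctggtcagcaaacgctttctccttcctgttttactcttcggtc

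The search covered both strands of the RefSeq windows, 300 bases each with 50 of them after the start site, and 7 of the 10 members had a window. In Myd88 the letters GAAANNGAA of an interferon-stimulated response element stood 16 to 8 bases before the start site as GAAAGCGAA. They overlapped the letters TTCNNNGAA of a STAT site, which stood 22 to 14 bases before it as TTCTCGGAA. The first motif was found in 9.71% of all 33469 windows and the second in 8.87%. The Tlr4 window held neither of them, nor the NF-κB letters GGNNNTTCC, which 18.3% of all windows held. Among the other members, Cd14 held the interferon letters as GAAACTGAA, 6 to 14 bases after its start site, Tlr2 held the NF-κB letters at 2 overlapping places from 205 to 196 bases before its start site, and 1 of the 2 windows of Tirap held them at 2 places after the start site. The windows of Tlr3 and Irak1 held none of the 3 motifs. Matches thus stood in 1 of the 2 members that rose and in 3 that did not pass the test.

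Tlr4, the surface receptor for lipopolysaccharide and for several endogenous ligands, had 205, 211 and 198 counts in H3CIT+dsDNA replicates 1 to 3 and 109, 124 and 118 counts in controls 1 to 3. Every challenged library lay far above every control, and the libraries of a group lay close together. The mean level of the controls was 6.38 ± 0.288 CPM and that of the challenged cells 11.4 ± 0.539 CPM (SD, n = 3 each). The rise was 1.78-fold with a 95% interval of 1.52 to 2.09, which is 0.84 on the log2 scale with a standard error of 0.10 (edgeR, adjusted p = 0.000335). Of all genes tested, 1.45% had a larger log2 fold change upwards.

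Tlr2, which forms heterodimers with Tlr1 or Tlr6 and recognises bacterial lipoproteins, had 99, 113 and 110 counts in the challenged libraries against 85, 98 and 89. The 3 challenged libraries lay above the 3 controls once scaled to library size, at 5.98 ± 0.481 CPM against 4.95 ± 0.290 CPM (SD, n = 3 each), although the lowest challenged count was only 1 above the highest control count. The fold change of 1.21 did not pass the test, with an interval of 0.976 to 1.49 (adjusted p = 0.426 from edgeR).

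Tlr3, the receptor of double-stranded RNA, was the least counted member that could be tested, with 30, 29 and 37 counts in challenged cells against 29, 23 and 26. On the CPM scale the groups were again narrowly apart, at 1.78 ± 0.224 and 1.42 ± 0.194 CPM (SD, n = 3 each). The fold change was 1.25 (adjusted p = 0.596 from edgeR), and its wide interval from 0.866 to 1.81 still held the 1.78-fold of Tlr4. Together with Tlr4 and Myd88, these 2 receptors make 4 of 9 members whose groups did not overlap, all 4 higher after the challenge, where 19.1% of all genes tested had groups apart (10.7% higher and 8.43% lower).

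**Figure D1:**
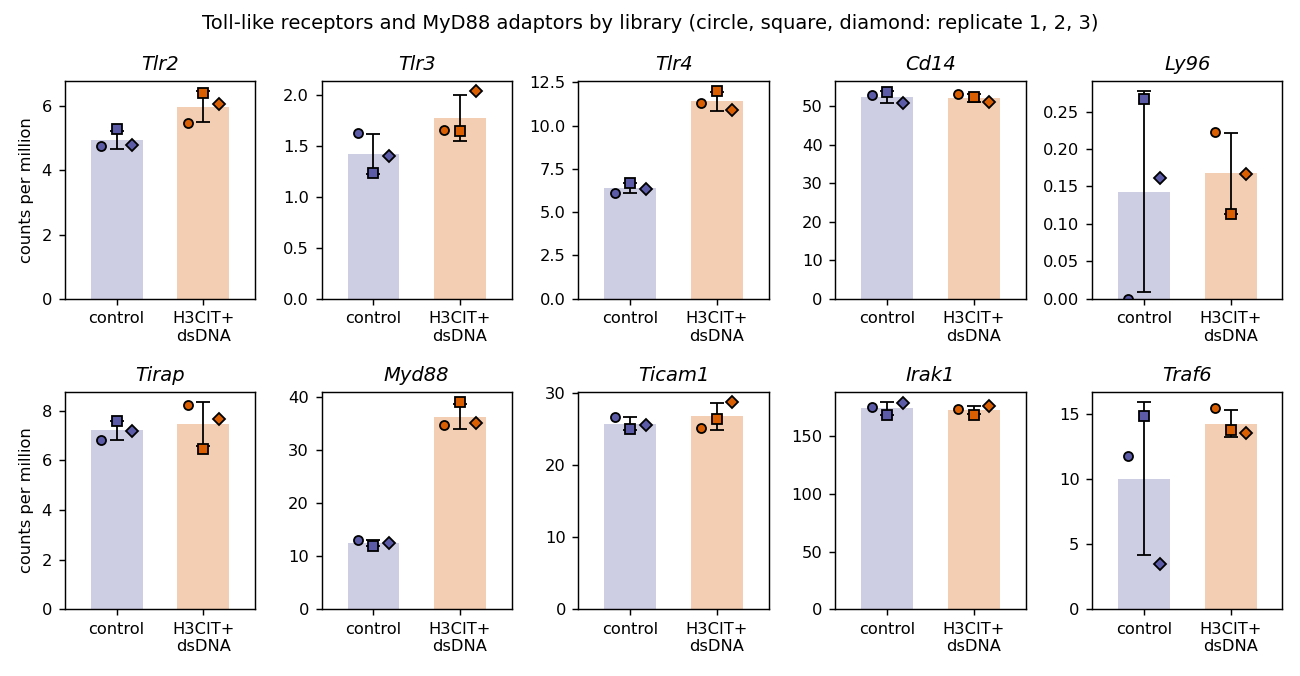
Level of each member in CPM (vertical axes, each from 0; TMM-scaled, except Ly96, which is divided by the library total alone) in control cells (blue) and after H3CIT+dsDNA (orange); bars are means of 3 libraries, error bars are SD and each point is a library. The groups stand well apart for Tlr4 and Myd88, Cd14 and Irak1 are level, and Traf6 has one control library far below the other 5.

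Of the co-receptors of Tlr4, Cd14 did not pass the test and Ly96 could not be tested. Cd14, a glycolipid-anchored surface protein, had 963, 921 and 926 counts in challenged cells against 942, 994 and 941. The groups overlapped, and the interval of the fold change, from 0.929 to 1.07, was narrow (fold change 0.996, adjusted p = 0.973 from edgeR). Ly96, which encodes MD-2, was close to 0, with 4, 2 and 3 counts in the challenged libraries and 0, 5 and 3 in controls. At this depth it was below the filter for testing, and no fold change is given. Ticam2, the bridge from Tlr4 to Ticam1, had 1 count in the 6 libraries together. Lbp, the lipopolysaccharide-binding protein, had 240 to 274 counts in challenged cells against 273 to 329 (log2 fold change -0.19, adjusted p = 0.363 from edgeR).

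Among the adaptors, Myd88 rose, while Tirap and Ticam1 did not pass the test. Myd88, the adaptor of all Toll-like receptors but Tlr3 and of the IL-1 receptor family, had 629, 687 and 637 counts in challenged cells against 234, 221 and 232 in the controls. The lowest challenged library held over 2 times the counts of the highest control. Its level rose from 12.5 ± 0.601 CPM to 36.3 ± 2.37 CPM (SD, n = 3 each), a 2.90-fold rise with an interval of 2.59 to 3.25. On the log2 scale the rise was 1.54 with a standard error of 0.07 (edgeR, adjusted p = 1.93e-08). Upward changes larger than this were found in 0.723% of all genes tested.

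Tirap, which bridges Tlr2 and Tlr4 to Myd88, had 149, 114 and 139 counts in challenged cells against 122, 141 and 133, so that the groups overlapped. Its fold change was 1.03 with an interval of 0.854 to 1.25 (adjusted p = 0.904 from edgeR). Ticam1, the adaptor of Tlr3 and of endosomal Tlr4, had 456, 465 and 522 counts against 477, 464 and 474. On the CPM scale 2 of the 3 challenged libraries lay within the range of the controls, and the fold change was 1.04 with an interval of 0.936 to 1.15 (adjusted p = 0.780 from edgeR). Both intervals ended below the lowest value, 1.52, of that of Tlr4 and well below that of Myd88.

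**Figure D2:**
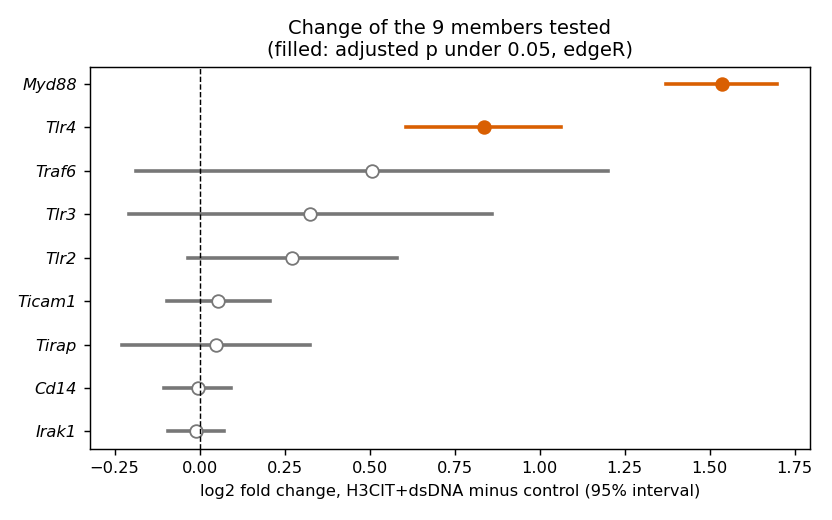
Log2 fold change (horizontal axis, H3CIT+dsDNA minus control) of the 9 members tested, sorted, with 95% intervals from the edgeR fit; filled orange points had an adjusted p-value under 0.05. Myd88 and Tlr4 are to the right, Cd14, Irak1 and Ticam1 have short intervals around 0, and Traf6 has the widest, from -0.19 to 1.20.

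Ratios within a library do not depend on how libraries are scaled to each other, and 4 of them were computed after the values had been seen. The log2 ratio of Tlr4 to Cd14 counts had a mean of -2.19 in challenged libraries and of -3.04 in the others, a difference of 0.84. The log2 ratio of Myd88 to Ticam1 counts was 0.29 to 0.56 in challenged libraries, while controls lay at -1.07 to -1.03, a difference of 1.48. For Myd88 to Tirap the difference was 1.49, and for Tlr4 to Tlr2 it was 0.56. In each of the 4 the groups did not overlap, and each gave p = 0.1 in an exact permutation test (two-sided, n = 3 each, also 0.1 after Benjamini-Hochberg adjustment over the 4), the smallest p that 3 libraries against 3 allow. The numerators were the members that rose and the denominators members that did not pass the test. The ratios thus repeat those changes and are no separate support for them.

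Irak1, a kinase recruited by Myd88, was the most counted member, with 3148, 2963 and 3185 counts in challenged cells against 3130, 3111 and 3308. The groups overlapped, and the fold change of 0.992 had the narrowest interval of all, from 0.937 to 1.05 (adjusted p = 0.931 from edgeR). Traf6, the ubiquitin ligase downstream of Irak1, had 280, 242 and 246 counts in the challenged libraries but 210, 275 and 65 in controls. The groups overlapped through control replicate 2, and control replicate 3 stood alone at the low end. The resulting fold change of 1.42 did not pass the test and had an interval of 0.879 to 2.30 (log2 fold change 0.51, adjusted p = 0.520 from edgeR). Without control replicate 3 the log2 fold change was 0.10 (adjusted p = 0.746), and without control replicate 2 it was 0.91 (adjusted p = 0.303), so that the estimate for Traf6 depended on which control was kept.

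**Figure D3:**
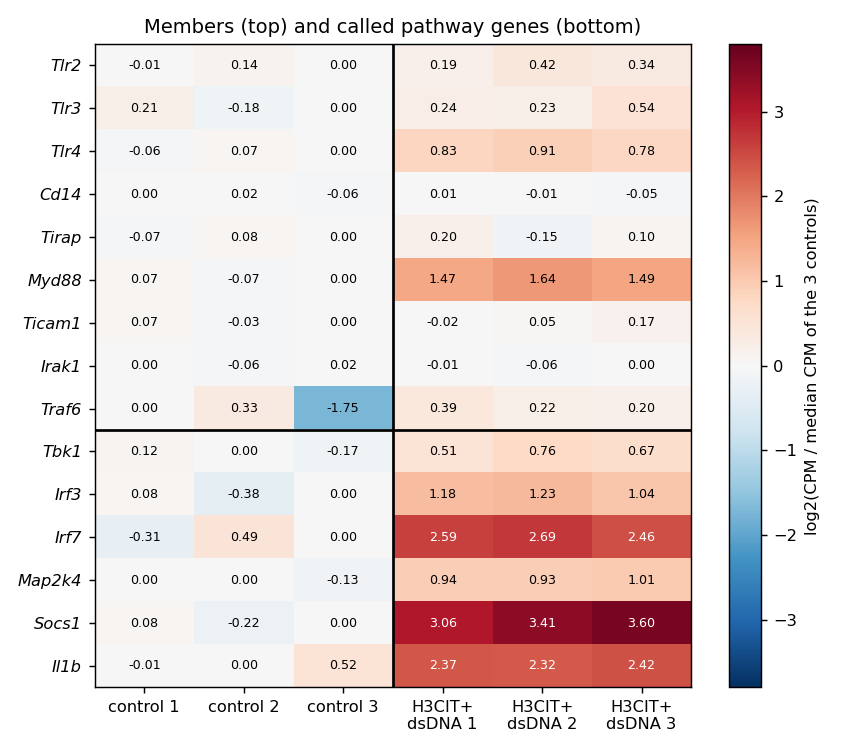
Log2 of each library's CPM over the median CPM of the 3 controls, for the 9 members tested (rows above the line) and the 6 pathway genes outside them that passed the test (below); columns are libraries and the colour scale runs from blue (lower) to red (higher). Myd88 is at 1.47 to 1.64 and Tlr4 at 0.78 to 0.91 in the challenged libraries, and the 1 dark cell among the controls is Traf6 in control 3, at -1.75.

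The other genes of the pathway were taken from lists made from knowledge of the pathway and with earlier results of these data known. They hold 85 genes outside the 10 members, of which 63 were tested and 6 passed the test, all 6 higher after H3CIT+dsDNA, beside 2.20% of all genes tested. Among the other Toll-like receptors, 2 of 10 were tested and neither passed (0 at an unadjusted p under 0.05, and 0 with DESeq2 or limma-voom). Tlr6 had 34, 47 and 54 counts in challenged cells against 35, 45 and 47, and Tlr5, the flagellin receptor, had 9 to 20 against 12 to 14. Tlr1 had 0 counts in the 3 challenged libraries and 0, 4 and 3 in controls. Its sequence is close to that of Tlr6, and reads of both could be shared or left uncounted. Tlr7, Tlr8, Tlr9, Tlr10 and Tlr11 had no count in any library, which allows at most 0.171 CPM for counting error alone in the shallowest library. Thus Tlr9, the endosomal receptor of DNA with unmethylated CpG, was not detected in either group.

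Of the proteins that serve the receptors as accessory molecules or carry them to their place in the cell, 5 of 8 were tested and 0 were called (0 at an unadjusted p under 0.05, and 0 with DESeq2 or limma-voom). Unc93b1, which escorts endosomal receptors, was at -0.08 on the log2 scale (edgeR, adjusted p = 0.635), and the chaperone Hsp90b1 at 0.04 (adjusted p = 0.594), neither past the threshold. Cd180 and Ly86, a receptor pair related to Tlr4 and MD-2, had at most 10 and 6 counts in any library.

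Of the adaptors, kinases and ubiquitin enzymes next to the receptors, 14 of 18 were tested and 0 passed (5 at an unadjusted p under 0.05, 3 of them higher and 2 lower, and 0 with DESeq2 or limma-voom). Irak4, the kinase that acts on Irak1, was at -0.11 on the log2 scale (edgeR, adjusted p = 0.612) and Irak2 at -0.13 (adjusted p = 0.742). Tab3, which binds the ubiquitin chains made by Traf6, had 195, 175 and 246 counts in challenged cells against 141, 143 and 167 (log2 fold change 0.48, adjusted p = 0.0893), with the groups apart. Its relative Tab2 also had its groups apart, with a log2 fold change of 0.14 (adjusted p = 0.0977). In the other direction, the ubiquitin-conjugating enzyme Ube2n, which works with Traf6, had 867, 868 and 788 counts in challenged cells against 902, 1036 and 958 (log2 fold change -0.17, adjusted p = 0.211), with the groups apart as well, and its partner Ube2v1 was at -0.10 (adjusted p = 0.321). Groups apart were thus found in 3 of these 14 genes, beside 19.1% of all genes tested.

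Among the kinases and interferon regulatory factors further down, 4 of the 15 genes tested rose, beside 1.94% of all genes tested, and 11 did not pass. Tbk1, the kinase of the Ticam1 and STING routes, had 798, 922 and 895 counts in challenged cells against 600, 575 and 512, a 1.58-fold rise (adjusted p = 0.000249 from edgeR). Its substrate Irf3 had 985, 996 and 898 counts against 453, 343 and 446, a 2.36-fold rise (adjusted p = 2.58e-06). Irf7, which is itself induced by interferon and pairs with Myd88 in some cells, had 159, 166 and 145 counts against 21, 38 and 27, a 5.56-fold rise (adjusted p = 2.87e-06). Map2k4, a kinase of JNK, had 434, 420 and 456 counts against 223, 232 and 212, a rise with an interval of 0.84 to 1.16 on the log2 scale (adjusted p = 1.27e-06). In these 4 genes every challenged library lay above every control, as in 10.7% of all genes tested. Map3k8 lay the other way with its groups apart, with 42, 41 and 38 counts in challenged cells against 63, 56 and 47. Its log2 fold change of -0.43 did not pass the test (adjusted p = 0.390 from edgeR). Of all genes tested, 8.43% had groups apart in that direction.

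The tested kinases that lead from Traf6 to NF-κB did not pass the test. Map3k7, a kinase from the list next to the receptors, had 2, 2 and 1 counts in challenged cells against 9, 2 and 3. It lay too low to be tested, and whether the counting missed reads of this gene was not tested. Chuk had a log2 fold change of 0.01, Ikbkb of -0.01 and Ikbkg, the regulatory subunit, of -0.08 (adjusted p = 0.965, 0.959 and 0.533 from edgeR). Map2k3, a kinase of p38, had 25, 122 and 124 counts in challenged cells against 252, 28 and 26, so that its libraries fell into high and low values inside both groups (adjusted p = 0.949).

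**Figure D4:**
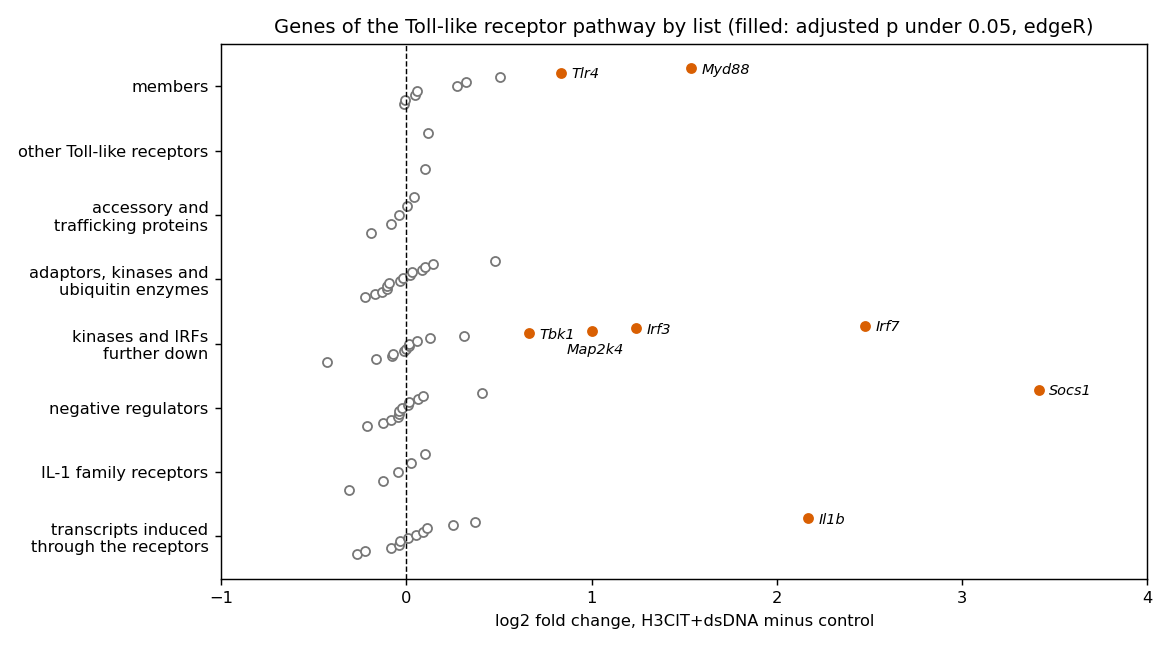
Log2 fold change (horizontal axis, H3CIT+dsDNA minus control) of every tested gene in the lists of the Toll-like receptor pathway (rows; height within a row only separates the points), with genes at an adjusted p-value under 0.05 in edgeR filled and named. In 4 of the 8 lists no gene is filled, and the named genes outside the members are Tbk1, Map2k4, Irf3, Irf7, Socs1 and Il1b.

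Of the negative regulators, Socs1 alone of 13 genes tested rose, from 57, 48 and 56 counts in controls to 455, 565 and 666 (log2 fold change 3.41, adjusted p = 7.00e-09 from edgeR). Of all genes tested, 1.94% were called higher. Besides Socs1, 2 genes of this list had their groups apart, Tnip1 and Il1rl1, both lower and neither called. Of all genes tested, 8.43% had groups apart in that direction. Socs1 is best known as an inhibitor of JAK kinases and is listed here because it also acts on Tirap. The inhibitors that act at the receptor complex had log2 fold changes of 0.09 for Irak3, which blocks the release of Irak1, and of -0.02 for Tollip (adjusted p = 0.519 and 0.843). Tnfaip3 (A20), a deubiquitinase that removes ubiquitin chains from Traf6, had 474, 418 and 480 counts against 473, 433 and 483 (adjusted p = 0.975).

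The receptors that share Myd88 with the Toll-like receptors were not called in 5 of 5 genes tested (0 at an unadjusted p under 0.05, and 0 with DESeq2 or limma-voom). Il1r1 had 580 to 659 counts in controls and 594 to 701 after H3CIT+dsDNA (log2 fold change 0.10, adjusted p = 0.533 from edgeR). A ligand of Il1r1 did rise: Il1b, which encodes IL-1β, had 116, 109 and 120 counts in challenged cells against 22, 23 and 33 (log2 fold change 2.17, adjusted p = 9.74e-06).

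Il1b was the 1 gene of 12 tested that passed among the transcripts known to be induced through Toll-like receptors. Of all genes tested, 2.20% passed. Nfkbia, the inhibitor that NF-κB induces against itself, had 1227, 1206 and 1204 counts in challenged cells against 1266, 1288 and 1264 (log2 fold change -0.04, adjusted p = 0.699 from edgeR). Its groups were close together and overlapped on the CPM scale. The chemokine genes Ccl2 and Cxcl1 had log2 fold changes of 0.05 and -0.08, and the cytokine gene Il6 of 0.11 (adjusted p = 0.817, 0.754 and 0.809). Ifnb1, the interferon gene that the Ticam1 route induces, had 1 count in the 6 libraries together. Tnf had 0 counts in 5 libraries and 69 in control replicate 3, and was not tested.

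The cells were checked with markers of other cell types, since macrophages and endothelial cells also express Toll-like receptors. Of 13 macrophage and leukocyte markers 6 were tested and 0 passed (0 at an unadjusted p under 0.05, and 0 with DESeq2 or limma-voom), and their summed level was 23.8 to 27.8 CPM after H3CIT+dsDNA and 25.6 to 26.8 CPM in controls. The markers Ptprc, Itgam, Cd163 and Mrc1 had at most 1 count in any library, and Cd68 had 13, 19 and 15 counts against 10, 18 and 14. Adgre1, Tyrobp and Spi1 were counted in every library, at 21 to 35, 28 to 40 and 20 to 30. Lyz2 had 1, 12 and 9 counts in challenged cells against 17, 10 and 13, with the groups overlapping. Its log2 fold change of -0.82 did not pass the test (adjusted p = 0.542 from edgeR). Csf1r was counted more, at 296 to 374 in all libraries, and Aif1, below the filter, had 8, 9 and 9 counts against 2, 2 and 3, with the groups apart. The summed level of 8 endothelial markers was 8.56 to 9.05 CPM after H3CIT+dsDNA and 9.82 to 10.7 CPM in controls, with 0 of 4 tested genes called (0 at an unadjusted p under 0.05). Kdr and Emcn had no more than 1 count in any library. Cdh5, Tie1 and Pecam1 were counted in every library, at 73 to 105, 38 to 61 and 9 to 18. Smooth muscle markers were abundant, at a summed 7568 to 8085 CPM after H3CIT+dsDNA and 10195 to 10887 CPM in controls. Of the 9, 4 (Acta2, Tagln, Cnn1 and Smtn) were called lower in edgeR, beside 0.262% of all genes tested. With limma-voom Smtn was not called (adjusted p = 0.0583). Cald1, the caldesmon gene, lay the other way with its groups apart (log2 fold change 0.16, adjusted p = 0.102 from edgeR), and DESeq2 called it higher (adjusted p = 0.0186). Lmod1, not called, had its groups apart and lower (log2 fold change -0.06, adjusted p = 0.563 from edgeR). Among the 9 markers, 1 had its groups apart and higher and 5 apart and lower, beside 10.7% and 8.43% of all genes tested. Acta2 can share reads with near-identical actin genes or lose reads through them, and the myosin gene Myh11 had 6699 to 6770 counts in challenged cells against 6385 to 6856. Fewer cells of a type and less RNA per cell cannot be told apart in bulk RNA. The part of the lower smooth muscle transcripts in the changes of Tlr4 and Myd88 was not tested.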

How the data were processed

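RNA of RASMCs was sequenced in 6 libraries, 3 per group, and groups and replicate numbers were taken from the sample titles. The doses come from the study's methods and the age of the rats from its reporting summary. The authors prepared stranded mRNA libraries, aligned reads to Rnor6.0 using TopHat, and deposited the raw counts that HTSeq gave for 22574 symbols. The submitters' processing notes name TopHat2 2.1.1, Cufflinks 2.2.1 and Cuffdiff. The strand setting of the counting is not given in the sources used here, so that overlapping or antisense genes can share reads. How reads that match near-identical genes were counted is not given either, so that such genes can share or lose reads. Totals lay between 17573905 and 18742395 counts. Intervals cover the fitted spread between libraries, and floors cover counting error only.

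The 10 members and the lists were chosen with earlier results of these data known. Genes were filtered with filterByExpr (minimum count 10), scaled by TMM and compared in R 4.3.3 with edgeR 4.0.16 (quasi-likelihood, two-sided, Benjamini-Hochberg adjustment over 12591 genes, called under 0.05). Standard errors and 95% intervals were derived from the unshrunken coefficient, the F statistic and its degrees of freedom. The rule for named genes took all members, the pathway genes that were called, those needed to say which receptor, adaptor or inhibitor was at or near 0 counts, and the defining markers. Other pathway genes that were not called (among them Lbp, Tab3, Ube2n, Map2k3 and Cxcl1) and markers such as Cdh5 and Adgre1 were named after their values were seen. The alternatives were 3 other scalings, DESeq2 1.42.0, limma-voom (limma 3.58.1), no filter, a stricter filter of 10 counts per library, a robust estimate of the dispersion, the replicate number as a block, and leaving out single libraries. Promoter windows are RefSeq's for GRCr8; members were matched to them by symbol. No column of the table was left out.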

Additional observations from a re-analysis of the deposited data

How the results depend on the processing

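Over 15 alternatives, Tlr4 and Myd88 were called in each and no other member in any. The log2 fold change ran from 0.80 to 0.87 for Tlr4 and from 1.48 to 1.57 for Myd88, and the highest adjusted p was 0.00362 and 2.79e-06. All 225 values of the 15 named genes tested kept their side of the threshold, the 6 called pathway genes included, while the log2 fold changes of Ticam1, Tirap, Cd14 and Irak1, none of them called, lay on both sides of 0 (from -0.04 for Irak1 to 0.14 for Tirap). Of the other pathway genes, Tab3 was called with robust dispersion estimates (adjusted p = 0.0333), and Cxcl1 was called lower without control replicate 3 (log2 fold change -0.22, adjusted p = 0.0240), which moved the number of lower pathway genes from 0 to a range of 0 to 1. Over all genes, 277 were called (244 higher, 33 lower). With each library left out, the number ran from 164 to 357 called, 147 to 300 higher and 17 to 57 lower. The number of lower genes was 51 with DESeq2, 50 with a robust dispersion and 58 unfiltered, and the cause was not tested. The lowest counts came without H3CIT+dsDNA replicate 1, the highest without control replicate 3, and 184 genes were called without control replicate 1. With a replicate block 212 genes were called, Tlr4 and Myd88 among them. The deviations of same-numbered libraries from their group means correlated at -0.0459, 0.00452 and 0.0355 across genes. Values near 0 show no strong pairing, but they cannot exclude a small effect shared by same-numbered libraries. Depth limits Ly96 and Tlr3.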

Other observations

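Traf6 in control replicate 3 belonged to a small set of single-library departures, counted after the values had been seen. Among 10759 genes with a mean of at least 50 counts, 17 had a control replicate 3 CPM at least 2 times below each of the other 5 libraries, which themselves lay within 1.5 times of each other. In the other 5 libraries between 0 and 2 genes were that far below the rest. Genes standing that far above the rest numbered 0 in control replicate 3, 3 in control replicate 1 and 1 in H3CIT+dsDNA replicate 3, and 0 in the remaining libraries. No other member was among them. The 3 counts of Ly96 after H3CIT+dsDNA were consecutive whole numbers, and no other member had 3 consecutive counts in a group. With counts as low as 4, 2 and 3 such a run is easily met. The other members had larger counts, and nothing was concluded from the run. Within a group, the counts of Tlr4 had a variance of 0.412 times their mean in challenged cells and 0.234 times in controls, where counting noise alone gives 1 on average and the medians over all genes tested were 1.49 and 1.47. For Myd88 these ratios were 2.59 and 0.518, and for Traf6 1.44 and 61.1.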
